A study of Mus musculus with 10 samples.

Results

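The elastic fibre and lysyl oxidase genes are 10 of the 24358 gene symbols in the count tables, taken by symbol: Eln, Fbn1, Fbn2, Fbln5 and Emilin1 for the fibre proteins, and Lox, Loxl1, Loxl2, Loxl3 and Loxl4 for the enzymes. All 10 had counts in every library, and all 10 passed the filter on low counts. RNA was sequenced from full-thickness biopsies of the back skin of 5 C57Bl/6 mice that develop a psoriasis-like skin disease. Each mouse gave 1 lesional biopsy (called involved in the labels) and 1 uninvolved biopsy, 10 in all. The labels call 2 mice IL-17C+KO (2392 and 2465) and 3 mice IL-17C+ (2237, 2275 and 2296). The series title writes the first genotype as IL-17C+IL-6KO, so all 5 mice carry the IL-17C transgene and the 2 mice are labelled as also lacking interleukin-6. No mouse without the transgene is among them, and the labels do not say which promoter drives it. The mice were 10 or 14 weeks old, and which mouse had which age is not stated, so age and genotype cannot be told apart.

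Elastic fibres give the dermis its recoil. Fibrillins form a scaffold of microfibrils, fibulin-5 brings the soluble elastin precursor to it, emilin-1 sits where elastin and microfibrils meet, and lysyl oxidases then oxidise lysines so that the elastin molecules become covalently cross-linked. The same enzymes cross-link fibrillar collagens. In skin these genes are expressed mainly by dermal fibroblasts and by the smooth muscle of vessels and hair follicles.

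Of the 10 genes, 4 had windows in the RefSeq promoter table (GRCm38.p6), namely Fbn1, Emilin1, Fbln5 (with 2 windows) and Loxl4. Each window was searched over the 250 bases before a start given by RefSeq. For Fbn1, Emilin1, Loxl4 and the second Fbln5 window that start lies inside the gene as GENCODE draws it, and the Fbn1 and Emilin1 windows are wholly exonic there. In the Loxl4 window 7 bases are exonic, and they were left off, so 243 bases are printed. As printed, the 2 windows shown lie outside every annotated exon, before the outermost annotated start of their gene. They are shown for their repeated GC boxes. The Fbln5 window is chr12:101819120-101819369 and the Loxl4 window is chr19:42612814-42613056, both for genes on the minus strand, written 5′ to 3′ with capitals on the GC box GGGCGG or its complement CCGCCC.
Fbln5: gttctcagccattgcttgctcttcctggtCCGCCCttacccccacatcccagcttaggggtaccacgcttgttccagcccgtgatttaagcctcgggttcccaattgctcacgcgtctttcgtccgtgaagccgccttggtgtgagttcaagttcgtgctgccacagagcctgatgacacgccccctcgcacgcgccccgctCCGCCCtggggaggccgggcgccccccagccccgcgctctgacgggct
Loxl4: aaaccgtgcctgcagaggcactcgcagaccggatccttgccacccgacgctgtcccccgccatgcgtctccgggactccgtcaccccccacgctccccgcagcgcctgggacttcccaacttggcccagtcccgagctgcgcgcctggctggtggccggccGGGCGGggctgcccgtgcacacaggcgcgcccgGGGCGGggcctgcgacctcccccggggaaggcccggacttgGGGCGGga
The GC box, searched on both strands, was found 2 times in the printed Fbln5 window, 3 times in the Loxl4 window and 1 time in the Fbn1 window, and 32.7% of all 32851 promoter windows hold it. None of the 5 windows held the AP-1 motif TGANTCA (6.75% of all windows), the STAT motif TTCNNNGAA (7.02%) or the TATA box TATAAA (12.4%). The CAGACA core of the CAGA box (17.1% of all windows) was found in the Emilin1 window and in the second Fbln5 window. These matches describe letters and not binding.

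The libraries held 21056850 to 31072491 counts. The members had between 68 (Loxl3, uninvolved, mouse 2237) and 9522 counts (Eln, lesional, mouse 2275) in a library. The targeted gene went against its label, since Il6 had 300 and 315 counts in lesional and 55 and 71 in uninvolved libraries labelled IL-17C+KO, against 18 to 69 and 4 to 9 in those labelled IL-17C+. Counts summed over a gene cannot show whether a disrupted allele is still transcribed, and every direction between genotypes below rests on the labels. The 6 keratinocyte markers were above 0 in every library, with a summed level of 14043 to 32579 CPM, the TMM-scaled count relative to library size. Skeletal muscle, hair follicle and neutrophil markers differed widely between libraries, and their values stand beside the results below. Il17c had 2346 and 10878 CPM in lesional and 534 and 1900 CPM in uninvolved libraries labelled IL-17C+KO, and 10593 to 12467 and 1416 to 15172 CPM in those labelled IL-17C+. The highest value, 15172 CPM, was that of the uninvolved biopsy of mouse 2237, whose lesional biopsy had 10593 CPM. In the other mice Il17c was higher in the lesion. The labels name no sequencing batch.

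Between genes, levels can be compared only per length, on the scale of the authors' FPKM. In lesional skin Eln had the highest mean of the 10 genes, 51.1 ± 32.4 FPKM (SD, n = 5), against 22.4 ± 12.8 FPKM in uninvolved skin (SD, n = 5). The 3 most abundant enzymes in lesional skin were Loxl1 at 29.4 ± 13.5, Loxl2 at 22.1 ± 14.9 and Lox at 19.2 ± 9.06 FPKM, against 12.5 ± 7.82, 5.39 ± 1.49 and 11.9 ± 3.43 FPKM in uninvolved skin (SD, n = 5 each). Fbn1 followed at 18.9 ± 9.18 FPKM, Fbln5 at 15.6 ± 6.81 and Emilin1 at 10.6 ± 6.66 in lesional skin, against 8.20 ± 3.74, 7.31 ± 1.41 and 2.79 ± 0.46 in uninvolved skin. In lesional skin the ranges of neighbours in this order overlapped. In uninvolved skin Loxl2 stood after Fbln5, and there the ranges did not overlap between Loxl2 and Emilin1 or between Emilin1 and Loxl4. Loxl4, Loxl3 and Fbn2 formed the low end, at 3.20 ± 1.43, 1.92 ± 1.14 and 1.58 ± 0.87 FPKM in lesional skin and 1.44 ± 0.43, 1.14 ± 0.57 and 0.85 ± 0.38 in uninvolved skin.

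The design pairs both biopsies of a mouse, so lesions were first set against the uninvolved skin of the same mouse. Of the 10 genes, 9 were higher in the lesional biopsy of all 5 mice, and Fbn2, a fibrillin best known from fetal tissue, was higher in 3 of 5. Of all genes, 9.14% of the 16083 genes tested were higher in every mouse. Emilin1 and Loxl2 had the widest separation, since all 5 lesional libraries lay above all 5 uninvolved libraries, as they did for 2.98% of genes.

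Among the fibre proteins, Emilin1 (GRCm38 chromosome 5, 30913402 to 30921277, plus strand) had 43.3 and 76.0 CPM in lesional skin of mice 2392 and 2465 and 17.9, 28.7 and 22.5 CPM in that of mice 2237, 2275 and 2296. In uninvolved skin it had 11.7 and 13.9 CPM in mice 2392 and 2465, and 9.41, 10.4 and 9.27 CPM in mice 2237, 2275 and 2296. The uninvolved libraries were close to each other and the lesional ones spread widely above them. The paired fit of all 5 mice put Emilin1 at 1.60 ± 0.25 log2 units higher in lesional skin (SE), a 3.03-fold difference (edgeR adjusted p = 0.066, and 7.41e-07 to 0.198 over the alternatives).

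Elastin itself (Eln, chromosome 5, 134702593 to 134747323, minus strand) had 147 and 276 CPM in lesional skin of mice 2392 and 2465 and 108, 370 and 86.3 CPM in that of mice 2237, 2275 and 2296. The uninvolved libraries held 146 and 160 CPM in mice 2392 and 2465, and 29.5, 97.1 and 52.5 CPM in mice 2237, 2275 and 2296. Mouse 2392 had nearly the same level in both biopsies, and the lesional and uninvolved ranges overlapped. The fitted difference was 1.07 ± 0.31 log2 units (SE, adjusted p = 0.133 with edgeR). Eln shares 267 exonic bases with the antisense gene Gm30003, and the strand setting of the counting is not given. The Eln counts can therefore include reads of Gm30003 or lack some of their own.

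Fibrillin-1 (Fbn1, chromosome 2, 125300594 to 125507993, minus strand), the main microfibril protein after birth, had 215 and 350 CPM in lesional skin of mice 2392 and 2465 and 149, 186 and 96.6 CPM in that of mice 2237, 2275 and 2296. It had 96.7 and 159 CPM in uninvolved skin of mice 2392 and 2465, and 116, 62.6 and 46.3 CPM in that of mice 2237, 2275 and 2296. The smallest of the 5 paired differences, 0.36 log2 units, was that of mouse 2237, and the other mice had 1.06 to 1.57. The fitted difference was 1.06 ± 0.20 log2 units (SE, edgeR adjusted p = 0.0763). Fbn1 shares 2442 exonic bases with the protein-coding gene Gm9913 on the other strand, the longest overlap among the 10 genes. Its counts can therefore include reads of that gene or lack some of their own.

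Fibulin-5 (Fbln5, chromosome 12, 101746565 to 101819055, minus strand) ranged from 65.2 to 158 CPM in lesional skin and from 39.7 to 65.2 CPM in uninvolved skin, and 4 of the 5 lesional libraries lay above the highest uninvolved one. Its fitted difference was 0.88 ± 0.19 log2 units (SE, edgeR adjusted p = 0.0897). Fbn2 ranged from 4.55 to 24.8 CPM in lesional skin and from 5.72 to 16.7 CPM in uninvolved skin. Its paired differences ran from -1.31 in mouse 2296 to 2.10 in mouse 2465, and the fitted value was 0.62 ± 0.53 log2 units (SE, edgeR adjusted p = 0.542). The spread between mice was therefore larger than the Fbn2 difference.

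Among the enzymes Loxl2 (chromosome 14, 69609068 to 69695834, plus strand), which is known for oxidising collagen IV as well as fibrillar collagens, had 96.1 and 255 CPM in lesional skin of mice 2392 and 2465 and 61.8, 123 and 62.3 CPM in that of mice 2237, 2275 and 2296. In uninvolved skin it had 39.7 and 42.9 CPM in mice 2392 and 2465, and 34.1, 21.5 and 23.7 CPM in mice 2237, 2275 and 2296. Every lesional library was thus above every uninvolved one. At 1.72 ± 0.30 log2 units (SE) its fitted difference was the highest of the 10, a 3.29-fold difference (edgeR adjusted p = 0.0687). It shares 308 exonic bases with the antisense gene Gm27177 and with Mir6950.

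Loxl1 (chromosome 9, 58287738 to 58313186, minus strand), the family member that fibulin-5 tethers to elastic fibres, had 126 and 161 CPM in lesional skin of mice 2392 and 2465 and 58.8, 101 and 54.2 CPM in that of mice 2237, 2275 and 2296. In uninvolved skin it had 62.9 and 93.0 CPM in mice 2392 and 2465, and 18.9, 32.7 and 30.1 CPM in mice 2237, 2275 and 2296. The uninvolved libraries of mice 2392 and 2465 lay within the lesional range of the other mice, while each mouse was higher in its own lesion. The fitted difference was 1.18 ± 0.19 log2 units (SE, edgeR adjusted p = 0.066).

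Lox, the founding enzyme of the family, had 90.3 and 159 CPM in lesional skin of mice 2392 and 2465 and 39.5, 90.6 and 80.7 CPM in that of mice 2237, 2275 and 2296. In uninvolved skin it had 87.0 and 67.6 CPM in mice 2392 and 2465, and 34.8, 56.4 and 67.8 CPM in mice 2237, 2275 and 2296. Lox had the smallest fitted difference of the 10 genes, 0.48 ± 0.21 log2 units (SE, edgeR adjusted p = 0.24), with paired differences from 0.05 in mouse 2392 to 1.23 in mouse 2465. Within each of the 5 mice Loxl2 differed more between the biopsies than Lox did, by 0.67 to 1.83 log2 units. Loxl2 and Lox have the highest and the smallest fitted difference of the 10 in these same mice. Their order within a mouse was therefore largely built in, and it was not tested.

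The enzymes of low level were Loxl4 and Loxl3. Loxl4 (chromosome 19, 42593982 to 42612813, minus strand) ranged from 11.1 to 32.4 CPM in lesional skin and from 6.06 to 12.3 CPM in uninvolved skin, with a fitted difference of 0.98 ± 0.23 log2 units (SE, edgeR adjusted p = 0.0998). Loxl3 (chromosome 6, 83034173 to 83052562, plus strand) ranged from 3.40 to 14.7 CPM in lesional skin and from 2.81 to 9.67 CPM in uninvolved skin, with a fitted difference of 0.55 ± 0.25 log2 units (SE, edgeR adjusted p = 0.253). Loxl3 shares 535 exonic bases with Htra2 on the other strand, whose level was 11.9 to 18.8 CPM in lesional and 14.2 to 22.2 CPM in uninvolved libraries. Depending on how reads on the shared bases were counted, the Loxl3 counts can include reads of Htra2 or lack some of their own.

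**Figure D1:**
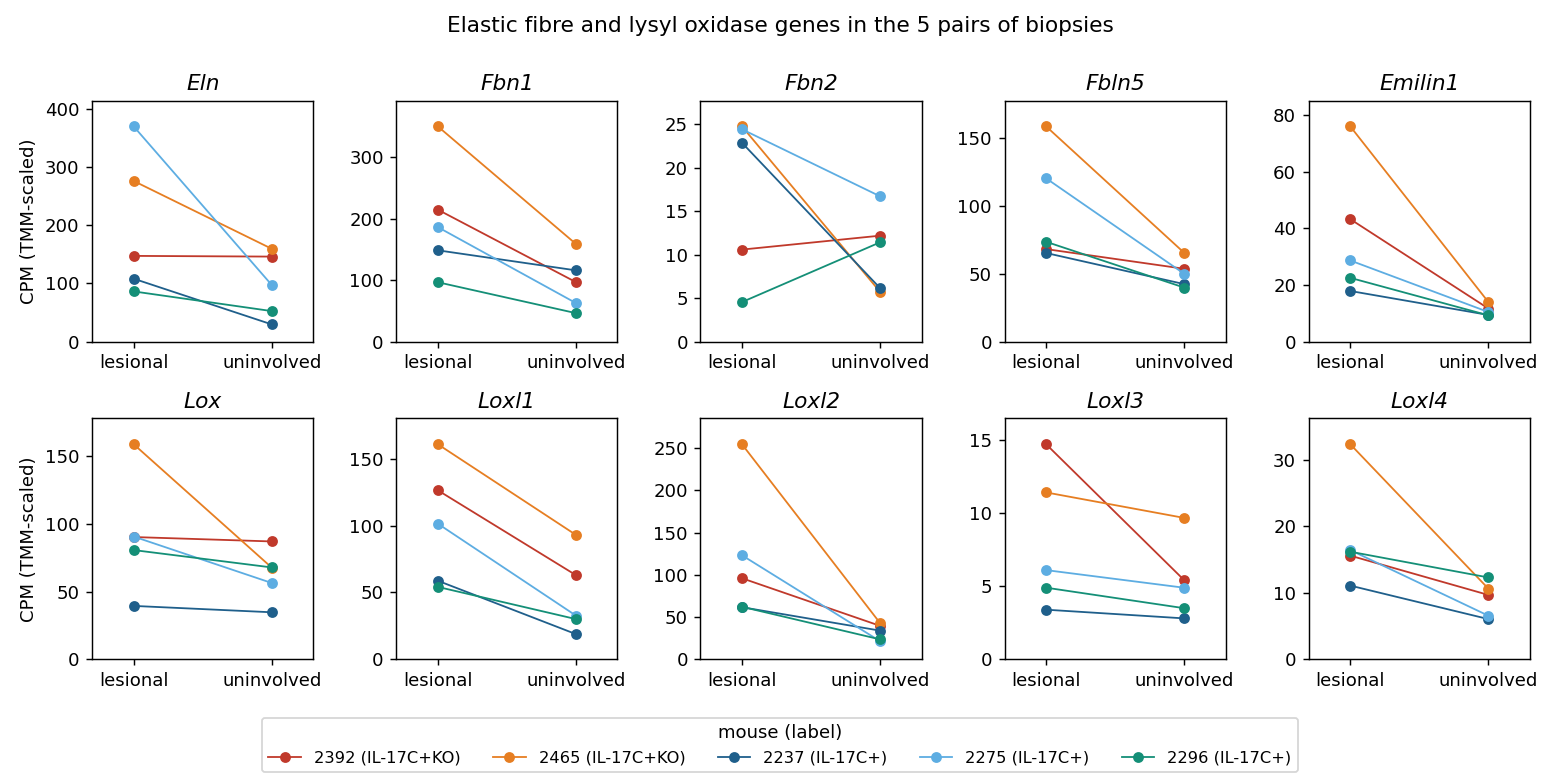
Level of each of the 10 genes in CPM (TMM-scaled, linear axis from 0) in the lesional and uninvolved biopsy of each of the 5 mice, joined by a line per mouse. In 9 panels all 5 lines are higher at the lesional end, and in the Fbn2 panel 3 of 5 are.

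Across all genes the paired test of 5 mice called few. In the quasi-likelihood test of edgeR, blocked by mouse, 0 of the 10 reached an adjusted p (Benjamini-Hochberg) under 0.05, where 8 of 16083 genes (0.0497%) did. Before adjustment 7 of the 10 had p under 0.05, all higher in lesional skin, where 21.5% of all genes passed in either direction and 10.1% were higher. The 7 were Eln, Fbn1, Fbln5, Emilin1, Loxl1, Loxl2 and Loxl4. The median fitted difference of the 10 genes was 1.02 log2 units, and that of all genes tested was -0.01. DESeq2 called these 7 genes (2036 genes in all) and limma-voom 0 (4 in all). Without mouse 2237, 5 of the 10 had an adjusted p under 0.05 (1252 genes in all), and without any one of the other mice 0 did (0 genes in all). Without the mouse block, 3 did (891 genes in all).

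Markers of several cell types also differed between the biopsies, not all in the same direction or in the same mice as the 10 genes. In bulk skin, more cells of a type and more RNA per cell cannot be told apart. The summed level of the 9 fibroblast markers, none at 0 in any library, was 2447 to 4918 CPM in lesional libraries labelled IL-17C+KO and 1604 to 2963 CPM in lesional ones labelled IL-17C+. In uninvolved skin it was 1726 to 2859 CPM under the label IL-17C+KO and 1275 to 1783 CPM under IL-17C+. The median paired difference of the fibroblast markers was 0.60, 1.26, 0.24, 0.12 and 1.04 log2 units in mice 2392, 2465, 2237, 2275 and 2296, beside 0.84, 1.25, 0.86, 1.38 and 0.78 for the 10 genes. The 2 medians were close in mouse 2465 and far apart in mouse 2275. The 7 smooth muscle markers had medians of 0.02, -0.54, -0.10, -0.63 and 0.39 in the same order of mice, with no marker at 0. Their summed level was 354 to 670 CPM in lesional and 2144 to 3023 CPM in uninvolved libraries labelled IL-17C+KO, and 437 to 516 CPM in lesional and 665 to 2285 CPM in uninvolved libraries labelled IL-17C+. Most of that gap was Des, which skeletal muscle expresses too, at 48.0 to 331 CPM in lesional and 1867 to 2596 CPM in uninvolved libraries labelled IL-17C+KO. The fitted differences of the other 6 smooth muscle markers were -0.36 (Myh11) to 0.11 (Acta2) log2 units, none with an unadjusted p under 0.05.

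The labels do not say how much of the muscle below the dermis each biopsy held. The 10 skeletal muscle markers were all above 0. Their summed level was 776 to 4934 CPM in lesional and 26569 to 48081 CPM in uninvolved libraries labelled IL-17C+KO, and 3074 to 7033 CPM in lesional and 6785 to 32919 CPM in uninvolved libraries labelled IL-17C+. The 8 hair follicle markers had median differences of 8.72 in mouse 2275 and 6.26 in mouse 2465, and of -0.41 to -1.05 in the other mice. Of the 7 neutrophil markers 6 were in the tables, and mouse 2237 had 2199 CPM of them in lesional and 2091 CPM in uninvolved skin. The other 4 mice had 2283 to 12571 CPM in lesional and 60.2 to 2431 CPM in uninvolved skin. Most of this sum was S100a8 and S100a9, with means of 2222 and 3333 CPM in lesional libraries labelled IL-17C+. In uninvolved libraries with that label their means were 620 and 885 CPM. There Cxcr2 averaged 21.7, Retnlg 2.62, Csf3r 2.21 and Fpr1 0.11 CPM. The sum therefore mainly follows S100a8 and S100a9 and is no measure of neutrophil number. The median difference of the 6 neutrophil markers was 0.58 log2 units in mouse 2237. It was 2.86, 5.14, 3.26 and 2.91 in mice 2392, 2465, 2275 and 2296. The 7 adipocyte markers had median differences of 0.85, -3.27, -0.93, -1.19 and -0.60 log2 units in mice 2392, 2465, 2237, 2275 and 2296, the 6 endothelial markers 0.37, -0.06, 0.81, -0.11 and 0.27, and the 7 macrophage markers 1.08, -0.78, 0.37, -0.41 and 0.79. None of these markers was at 0 in any library. The part of all these markers in the differences of the 10 genes was not tested.

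By genotype label, the lesional difference was positive for all 10 genes under each label. In the 2 mice labelled IL-17C+KO the highest were Emilin1 at 2.17 ± 0.32, Loxl2 at 1.92 ± 0.51 and Loxl4 at 1.15 ± 0.39 log2 units (SE), and Eln was at 0.40 ± 0.40. In the 3 IL-17C+ mice the highest were Loxl2 at 1.58 ± 0.41, Eln at 1.51 ± 0.34 and Loxl1 at 1.37 ± 0.26 log2 units (SE), and Emilin1 was at 1.22 ± 0.25. The median of the 10 genes was 0.93 under the label IL-17C+KO and 0.96 under IL-17C+, with 0.00 and -0.02 over all genes.

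With edgeR, 0 of the 10 genes passed the threshold under the label IL-17C+KO (0.0124% of all genes did), and 5 had an unadjusted p under 0.05, all higher (13.5% of all genes, 6.16% higher). Under IL-17C+, 0 of the 10 passed (0% of all genes), and 7 had an unadjusted p under 0.05, all higher (6.41% of all genes, 3.54% higher). DESeq2 called 2 of the 10 under IL-17C+KO (Emilin1 and Loxl2), where it called 1157 of 16083 genes in all. Under IL-17C+ it called 4 of the 10 (Eln, Emilin1, Loxl1 and Loxl2) and 247 of 16083 genes in all. The limma-voom fit called 0 of the 10 under each label. Without mouse 2465 the Eln difference under the label IL-17C+KO was 0.01, and without mouse 2392 it was 0.79.

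Whether the lesional difference itself differs between the labels was tested in the same fit. The difference was larger under the label IL-17C+KO by 0.95 ± 0.39 log2 units for Emilin1 and smaller by 1.11 ± 0.52 for Eln (a value of -1.11, SE). Neither passed over all genes in edgeR's test (adjusted p = 1.0 for each). Of the 10 genes, 0 had an adjusted p under 0.05 (0% of all genes), 1 had an unadjusted p under 0.05 (Emilin1, where 1.17% of all genes did, 0.572% upward), and DESeq2 and limma-voom called 0. The values of the other 8 genes ran from -0.48 (Loxl1) to 0.56 (Fbn2). The Emilin1 value ranged from 0.67 to 1.22 and the Eln value from -1.52 to -0.73 with single mice left out. For the same difference all 10 skeletal muscle markers were negative with a median of -2.62. Of these, 3 had an unadjusted p under 0.05 in edgeR's test. The fibroblast markers had 6 of 9 positive values with a median of 0.49, and the hair follicle markers 6 of 8 with a median of 1.42. The part of these markers in the values of the 10 genes was not tested.

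**Figure D2:**
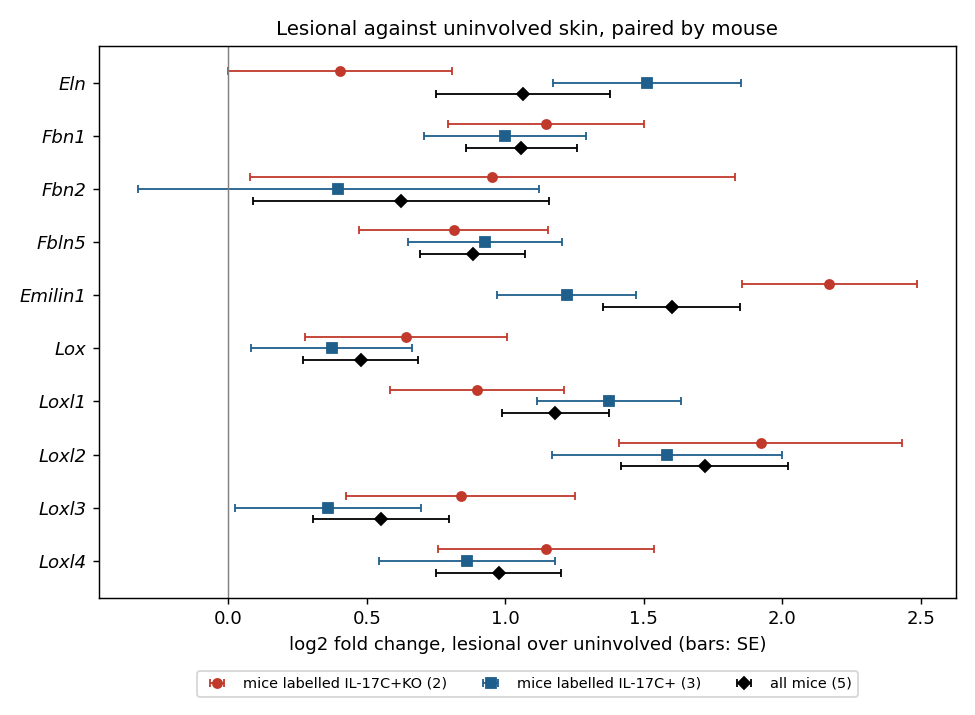
Fitted log2 fold change of lesional over uninvolved skin for each gene, in the 2 mice labelled IL-17C+KO (red circles), the 3 IL-17C+ mice (blue squares) and all 5 mice (black diamonds), with bars for the SE. All 30 points are right of 0, and the labels lie farthest apart for Emilin1 and Eln.

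The make-up of the lysyl oxidase transcripts also differed between the biopsies. As a share of the summed FPKM of the 5 enzymes within a library, Lox made up 25.9 ± 5.48% in lesional skin and 38.1 ± 7.80% in uninvolved skin (SD, n = 5 each), and it was lower in the lesion of 5 of 5 mice. Loxl2 made up 27.9 ± 4.98% in lesional skin and 17.8 ± 6.83% in uninvolved skin, and was higher in the lesion of 4 of 5 mice. The exception was mouse 2237, with 28.7% in lesional and 30.0% in uninvolved skin. Loxl1 made up 39.3 ± 5.73% and 36.0 ± 9.72%, Loxl4 4.45 ± 0.97% and 4.69 ± 1.49%, and Loxl3 2.55 ± 1.05% and 3.46 ± 0.78%, in lesional and uninvolved skin. Among the 5 fibre proteins Eln held 50.0 ± 9.40% in lesional and 50.6 ± 14.4% in uninvolved skin, and was higher in the lesion of 2 of 5 mice. These shares depend on the authors' transcript lengths, were set up after the values were known and were not tested.

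**Figure D3:**
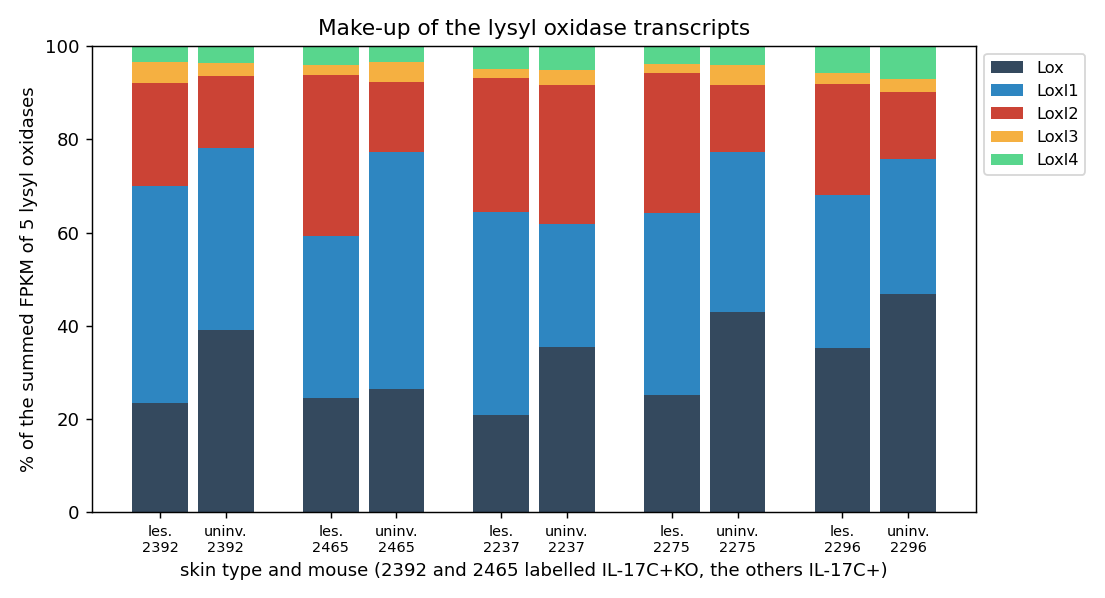
Share of each lysyl oxidase in the summed FPKM of the 5 enzymes, in percent, with 1 bar per library and the 2 biopsies of a mouse side by side. The Lox segment is shorter in the lesional bar of all 5 mice, and the Loxl2 segment is longer in 4 of 5.

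Genes that act around the elastic fibre were looked at in 4 lists, which were tested with edgeR alone. Among 11 tested genes of lysyl oxidase processing and copper supply, 1 rose over all 5 mice. Fibronectin (Fn1), on whose fibrils the lysyl oxidase precursor is processed, rose by 1.73 ± 0.16 log2 units (SE, edgeR adjusted p = 0.026) and was higher in 5 of 5 mice. The call was lost without mouse 2275, 2296, 2392 or 2465, when 0 genes passed. Its mean was 518 ± 247 CPM (SD, n = 2) in lesional and 165 ± 55.9 CPM (SD, n = 2) in uninvolved skin labelled IL-17C+KO, and 248 ± 116 CPM (SD, n = 3) in lesional and 69.3 ± 27.6 CPM (SD, n = 3) in uninvolved skin labelled IL-17C+. Next in that list came thrombospondin-1 (Thbs1, 1.43 ± 0.34) and the protease Bmp1, which removes the lysyl oxidase propeptide (1.27 ± 0.33), neither past the threshold. The list had 8 of 11 positive values and a median of 0.39 log2 units.

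In the other 3 lists 0 genes passed over all 5 mice. The microfibril and elastic fibre partners had 13 of 18 positive values and a median of 0.31, and the smallest p belonged to fibulin-4 (Efemp2, 1.49 ± 0.26), versican (Vcan, 1.97 ± 0.41) and Fbln2 (1.06 ± 0.23). Of 11 elastin-degrading proteases 9 could be tested, 8 had positive values, the median was 1.16, and the gelatinase Mmp9 (1.96 ± 0.29), the macrophage elastase Mmp12 (1.99 ± 0.45) and Mmp2 (1.51 ± 0.35) led. All 6 fibrillar collagens had positive values with a median of 2.10, led by Col5a3 (1.85 ± 0.27), Col5a1 (2.26 ± 0.37) and Col5a2 (2.10 ± 0.35). Before adjustment, p was under 0.05 for 8 partners (6 higher and 2 lower, Adamtsl4 and Adamtsl5), 6 proteases and 6 collagens (all higher), and 5 processing genes (4 higher and 1 lower, Pcolce2), where 21.5% of all genes passed. The median of all genes was -0.01.

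By label 0 genes of these lists passed. Before adjustment, p was under 0.05 for 5 partners, 4 proteases, 6 processing genes and 6 collagens under IL-17C+KO, where 13.5% of all genes passed. All were higher but Adamtsl4, Adamtsl5, Pcolce2 and Fmod. Under IL-17C+ the counts were 5, 5, 3 and 5 in the same order of lists, all higher, where 6.41% of all genes passed. Under the label IL-17C+KO the leading values were Efemp2 1.93 ± 0.38, Vcan 2.69 ± 0.57 and Adamtsl5 -1.39 ± 0.40 among the partners, and Mmp9 1.82 ± 0.48, Mmp2 1.70 ± 0.63 and Mmp14 1.38 ± 0.54 among the proteases. Fn1 1.61 ± 0.29, Bmp1 1.78 ± 0.52 and Thbs1 1.80 ± 0.54 led the processing genes, and Col5a3 2.26 ± 0.42, Col5a2 2.42 ± 0.58 and Col3a1 3.19 ± 0.78 the collagens. Under IL-17C+ the partners were led by Efemp2 1.20 ± 0.31, Mfap4 1.88 ± 0.53 and Fbln2 1.08 ± 0.33, and the proteases by Mmp9 2.06 ± 0.41, Mmp12 2.07 ± 0.61 and Mmp2 1.41 ± 0.47. The processing genes were led by Fn1 1.81 ± 0.24, Postn 2.18 ± 0.83 and Thbs1 1.15 ± 0.45, and the collagens by Col5a3 1.57 ± 0.34, Col5a1 2.11 ± 0.50 and Col5a2 1.89 ± 0.46 (log2 units ± SE throughout). Efemp2, Mmp9, Fn1 and Col5a3 stood in the first place of their lists under each label.

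For the difference between the labels the smallest p among the partners belonged to Adamtsl4 (-1.36 ± 0.76), Vcan (1.24 ± 0.71) and Adamtsl5 (-0.82 ± 0.51), and among the proteases to Ctsl (0.53 ± 0.49), Ctsk (0.74 ± 0.97) and Ctsg (-0.48 ± 0.89). Among processing genes they belonged to Fmod (-1.60 ± 0.83), Pcolce (0.75 ± 0.40) and Pcolce2 (-1.14 ± 0.86), and among collagens to Col3a1 (1.40 ± 0.95), Col5a3 (0.69 ± 0.52) and Col1a2 (0.85 ± 0.91). With edgeR 0 genes of the 4 lists passed and 0 had an unadjusted p under 0.05.

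The labels were then compared within one skin type, 2 libraries against 3 from different mice. In lesional skin all 10 genes had positive values, that is, a higher level in libraries labelled IL-17C+KO. Loxl3 averaged 13.1 ± 2.33 CPM under IL-17C+KO (SD, n = 2), against 4.80 ± 1.35 CPM under IL-17C+ (SD, n = 3), a difference of 1.47 ± 0.32 log2 units (SE, edgeR adjusted p = 0.558, 0.0131 to 0.998 over the alternatives). Emilin1 averaged 59.6 ± 23.2 CPM under IL-17C+KO (SD, n = 2), against 23.0 ± 5.41 CPM under IL-17C+ (SD, n = 3), a difference of 1.40 ± 0.32 log2 units (SE, edgeR adjusted p = 0.565, 0.0281 to 0.998 over the alternatives). Loxl1 differed by 1.03 ± 0.33 and Fbn1 by 1.001 ± 0.36 log2 units.

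For these 4 genes both libraries labelled IL-17C+KO lay above all 3 labelled IL-17C+, which 11.8% of 15691 genes did, and for the other 6 the groups overlapped. With edgeR 0 of the 10 passed (0% of all genes), and the same 4 had an unadjusted p under 0.05 (7.3% of all genes, 4.77% higher). DESeq2 called 2 of the 10 (Emilin1 and Loxl3) and 213 of 15691 genes in all, and limma-voom called 0 of the 10. The median of the 10 was 0.93 log2 units and that of all genes 0.01. The fibroblast markers had 9 of 9 positive values with a median of 0.77, the endothelial markers 6 of 6 with a median of 0.88 and the macrophage markers 7 of 7 with a median of 0.67, while all 8 hair follicle markers were negative with a median of -2.22. All 10 skeletal muscle markers were negative too, with a median of -1.01. Before adjustment p was under 0.05 for 3 of the fibroblast markers, 4 of the endothelial ones (Cdh5 1.22, Kdr 1.26, Pecam1 0.89 and Tek 0.88 log2 units) and 1 macrophage marker (Csf1r, 0.91). The same held for 1 skeletal muscle and 1 hair follicle marker, each lower under IL-17C+KO. The part of these markers in the difference was not tested. Eln differed by 0.20 ± 0.71, and its sign turned without mouse 2237, 2296 or 2465 (-0.09, -0.18 and -0.37).

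In uninvolved skin 9 of the 10 genes had positive values, with Fbn2 at -0.34 ± 0.53. Loxl1 averaged 77.9 ± 21.2 CPM under IL-17C+KO (SD, n = 2), against 27.2 ± 7.34 CPM under IL-17C+ (SD, n = 3), a difference of 1.53 ± 0.34 log2 units (SE, edgeR adjusted p = 0.849). Eln averaged 153 ± 9.42 CPM under IL-17C+KO (SD, n = 2), against 59.7 ± 34.4 CPM under IL-17C+ (SD, n = 3), a difference of 1.37 ± 0.48 log2 units (SE, edgeR adjusted p = 0.849, 0.047 to 1.0 over the alternatives). Eln was thus set apart between the labels in uninvolved skin and overlapped in lesional skin, but the test of that change, the interaction above, did not pass.

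Both libraries labelled IL-17C+KO lay above all 3 labelled IL-17C+ for 6 genes (Eln, Fbln5, Emilin1, Loxl1, Loxl2 and Loxl3), which 10.5% of 15568 genes did. With edgeR 0 of the 10 passed (0% of all genes), 2 had an unadjusted p under 0.05 (Eln and Loxl1, 3.73% of all genes, 1.91% higher), and DESeq2 and limma-voom called 0. Without mouse 2275, Eln passed at 1.91 log2 units (241 genes in all). The median of the 10 was 0.60 log2 units and that of all genes -0.01. The fibroblast markers had 7 of 9 positive values with a median of 0.53. The smooth muscle markers had 6 of 7 with a median of 0.46, the endothelial markers 6 of 6 with a median of 1.03 and the macrophage markers 7 of 7 with a median of 0.64, and all 8 hair follicle markers were negative with a median of -6.44. All 10 skeletal muscle markers were positive with a median of 1.04. Before adjustment p was under 0.05 in edgeR's test for 6 of the hair follicle markers, all lower under IL-17C+KO. The same held, in the higher direction, for 3 fibroblast, 2 endothelial, 1 macrophage and 1 skeletal muscle marker, and for 0 smooth muscle markers. The part of these markers in the difference was not tested.

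**Figure D4:**
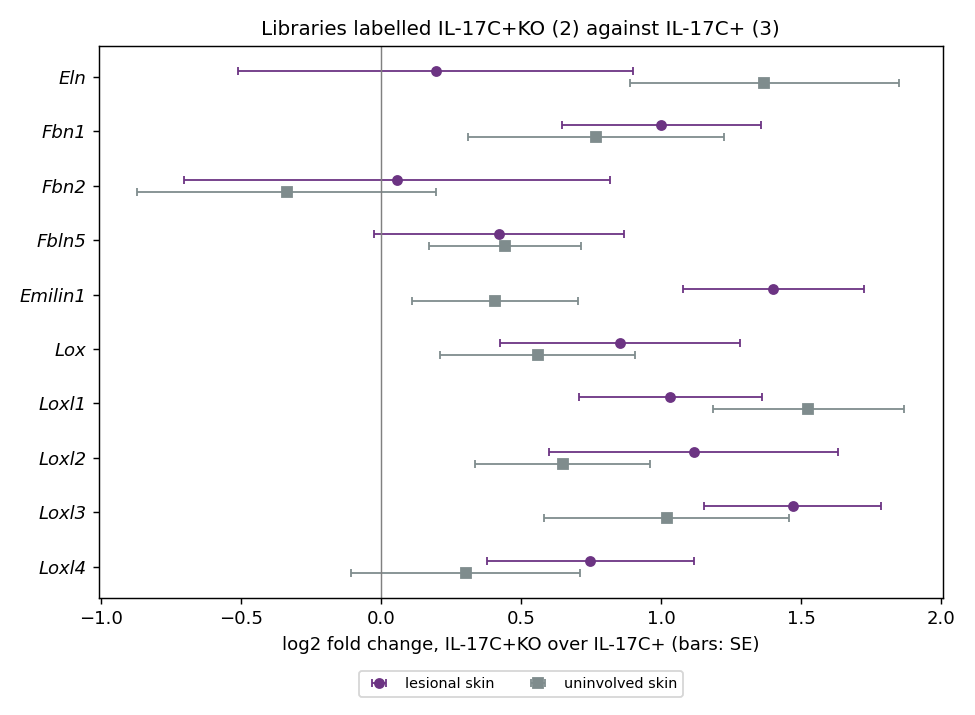
Fitted log2 fold change of libraries labelled IL-17C+KO (n = 2) over IL-17C+ (n = 3) for each gene in lesional skin (purple circles) and uninvolved skin (grey squares), with bars for the SE. Points right of 0 are higher under IL-17C+KO, as are all 10 in lesional and 9 of 10 in uninvolved skin, and none passed the threshold over all genes in edgeR's test.

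In the 4 lists around the elastic fibre, 0 genes passed between the labels in either skin type with edgeR. In lesional skin all 18 microfibril partners had positive values (median 0.74), led by Emilin2 (1.49 ± 0.21), a relative of Emilin1, Vcan (1.14 ± 0.23) and Efemp2 (1.11 ± 0.27). The processing genes Thbs1 (2.19 ± 0.26), Pcolce (1.17 ± 0.17) and Tll1 (1.05 ± 0.31) had the smallest p of their list, as did the proteases Mmp2 (1.29 ± 0.64), Mmp12 (-1.80 ± 0.96) and Mmp14 (1.06 ± 0.57) and the collagens Col5a3 (1.50 ± 0.39), Col5a2 (1.26 ± 0.62) and Col3a1 (1.11 ± 0.58). Emilin2 also led the partners in uninvolved skin, where it averaged 52.3 ± 18.3 CPM under IL-17C+KO (SD, n = 2), against 17.1 ± 4.04 CPM under IL-17C+ (SD, n = 3).

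In uninvolved skin 16 of 18 partners had positive values (median 0.77), and the smallest p after Emilin2 (1.62 ± 0.35) belonged to Fbln2 (0.90 ± 0.30) and Fbln1 (1.01 ± 0.39). Of the processing genes Fn1 (1.26 ± 0.41), Fmod (1.50 ± 0.56) and Pcolce2 (0.89 ± 0.37) led, of the proteases Mmp9 (1.42 ± 0.42), Prtn3 (0.75 ± 0.44) and Mmp12 (-1.76 ± 1.11), and of the collagens Col5a1 (0.77 ± 0.29), Col5a3 (0.80 ± 0.39) and Col5a2 (0.47 ± 0.28). Before adjustment, p was under 0.05 for 6 partners, 3 processing genes, 0 proteases and 1 collagen in lesional skin, where 7.3% of all genes passed. In uninvolved skin it was for 3, 3, 1 and 1 in the same order, where 3.73% of all genes passed. All of these were higher under IL-17C+KO.

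The genes whose pattern over the 10 libraries was most like that of Eln were Dchs1, Piezo2, Hspg2, Nynrin and Kirrel. Likeness was the root mean square difference of log2 CPM after centring each gene, taken over 13445 genes with a mean of at least 2 CPM, and it was 0.32, 0.40, 0.40, 0.43 and 0.44 log2 units in that order. For Lox they were Ets1, Lrrc8c, Thbs2, Tmem200b and Arid5a, at 0.25, 0.28, 0.30, 0.30 and 0.30 log2 units. Among the 10 genes themselves, Emilin1 and Loxl2 were nearest to each other at 0.31 log2 units. There were 8 other genes nearer to Emilin1 and 7 nearer to Loxl2. Eln was nearest to Loxl1 at 0.46, with 7 other genes nearer to Eln. Fbn2 stood apart, since its nearest member was Fbln5 at 0.77 log2 units and 2056 other genes were nearer to it.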

How the data were processed

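Per the submitters' processing notes, reads were handled with cutadapt 1.6, TopHat2 2.0.12, HTSeq and Cufflinks 2.2.1 on mm10. Annotation, strand setting and order of steps: not given in the sources used here. The deposited count column holds raw read counts per gene symbol. The deposited FPKM column is the abundance per transcript length and depth that the authors computed, used here for levels between genes and for alternative tests.

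Groups and mouse numbers came from the labels. The count test was that of edgeR 4.0.16 in R 4.3.3 (filterByExpr, TMM, robust quasi-likelihood F tests, Benjamini-Hochberg over all genes, threshold 0.05). The paired fits took all 10 libraries and a term per mouse, and the genotype comparisons the 5 libraries of a skin type. Each SE is the log2 change over the square root of F. Paired differences within a mouse were taken on log2 CPM (prior count 2). DESeq2 1.42.0 and limma 3.58.1 were alternatives. The scripts were tested on simulated counts without differences between mice or in tissue content. That checks the code and not the power or error rates in these data. A count of 0 would allow up to 3 counts, 0.0965 to 0.142 CPM.

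The pairing comes from the labels, which tie both biopsies to a mouse. After subtracting group means, the 2 libraries of a mouse correlated at 0.03 (2275), -0.07 (2296) and -0.12 (2237). The 2 mice labelled IL-17C+KO share 1 value, -0.07, because deviations from the mean of 2 mice mirror each other. With values this low, the pairing rests on the labels alone. No 2 libraries held the same values (highest correlation of log CPM 0.986). Whether the 2 or 3 mice of a label shared a litter is not given. Genes were named by rule: all 10 members, the genes past the threshold or else the 3 with the smallest p of each list, and the 5 genes most like Eln and Lox. The members and lists, the promoter motifs and the shares were chosen with earlier results of these data known. Gene positions were taken from GENCODE M21, on GRCm38, of which mm10 is another name.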

Additional observations from a re-analysis of the deposited data

Results flagged for a closer look

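Loxl3 in mouse 2392 stood apart from the other mice: its lesional minus uninvolved difference was 1.43 log2 units, against 0.48 in the next mouse and 0.24 to 0.31 in the other 3. The gap was 0.80 of the whole range over 5 mice, above the limit of 0.71 that chance passes in about 1 in 20 such groups, and 10 genes were looked at. The counts were 390 in lesional and 121 in uninvolved skin of that mouse.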

How the results depend on the processing

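Of the 10 genes' values for lesional against uninvolved skin over all 5 mice, none changed sign in the 13 alternatives. In 15 of 130 values a gene passed the threshold that had not passed it before. DESeq2 called 7 of the 10 (2036 genes), the fit with no replicate block 3 (891), and fits without single mice 0 to 5 (0 to 1252). All genes called there were 15 with no filter on low counts, 4 with limma-voom and 15 on log2(FPKM + 0.1). Under the label IL-17C+KO, DESeq2 called 2 of the 10 (1157 genes); the count over all genes was 1 with library totals, 5 with no filter, 1 on log2(FPKM + 1), 0 with no replicate block, 0 in the libraries of that label alone, and 0 to 11 without single mice. Under IL-17C+, DESeq2 called 4 (247 genes). It called 0 of the 10 for the difference between the labels (6 genes), 2 between the labels in lesional skin (213 genes) and 0 in uninvolved skin (11 genes). The fit with no filter called 1 gene in lesional skin, and without single mice 0 to 241 genes and 0 to 1 of the 10 were called in uninvolved skin. Signs that turned did so without single mice. The ranges were, for the lesional difference of Fbn2, -0.20 to 2.11 under IL-17C+KO and -0.37 to 1.23 under IL-17C+. For the difference between labels they were -0.17 to 0.41 (Fbn1), -0.31 to 0.98 (Loxl2), -0.58 to 0.35 (Fbln5), -0.60 to 1.71 (Fbn2), -0.13 to 1.08 (Loxl3), -0.32 to 0.85 (Lox) and -0.18 to 0.74 (Loxl4). In lesional skin between labels they were -0.37 to 1.16 (Eln), -0.72 to 0.55 (Fbn2) and -0.35 to 0.91 (Fbln5), and in uninvolved skin -0.997 to 0.10 (Fbn2). The causes were not tested. A fit that leaves 1 mouse under a label assumes that it varies like the others. Depth was not limiting for the 10 genes, whose lowest count was 68.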
